A study of Brassica juncea with 18 samples.

Results

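The response of Brassica juncea (Indian mustard) siliques, the seed pods, to 6 h at 4 °C was followed over 6 stages of silique growth. The comparison took the 6 control libraries and the 6 libraries of siliques chilled for 6 h, 12 of the 18 libraries in the series, chosen by their labels alone and paired by stage. All siliques came from field-grown plants of the variety Varuna whose flowers had been pollinated by hand with pollen of that variety, and were collected at 5, 10, 15, 20, 25 or 30 days after pollination (DAP). Branches of both groups were cut and stood in water, the chilled ones at 4 °C in the light and the controls outdoors in the field. Each stage and duration had 1 library, so the 6 stages served as the replicates, and the p-values below measure the spread of the cold difference between stages, each seen in single libraries. The study's methods state that the controls of all ages were taken on a single day, so the 6 pairs may share a day and are not independent repeats of the treatment. Whole siliques were taken, which mixes the RNA of pod wall, seed coat, endosperm and embryo, so that fewer cells of a type and less RNA per cell cannot be told apart. The hour of harvest was not given in the sources used here, so an effect of cold and an effect of the hour cannot be told apart either. Chilled and control branches also stood in different places, so cold cannot be told apart from light or other conditions there. How long the control branches had been cut was not given, and a difference in that time cannot be told apart from cold.

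A silique is a growing fruit: its cells enlarge by loosening a wall of cellulose, xyloglucan and pectin, under the control of auxin, gibberellin and brassinosteroid, while the embryo inside fills with oil and protein. Chilling is known to switch on the CBF and DREB transcription factors, which bind the promoters of cold-regulated genes and lead to the build-up of dehydrins, soluble sugars and proline. Growth slows in the cold, and many of the genes that loosen walls or answer growth hormones are known to be sensitive to temperature and to the time of day.

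Expression was given as FPKM, the fragments of a transcript scaled to its length and to the size of the library, for 13342 transcripts of 9446 unigenes, a unigene being a group of transcripts that the de novo assembly joined. The table holds only transcripts that had already been called different between some pair of the 18 libraries, so a call here is not independent evidence of change. Transcripts are named by their best protein hit, often in Arabidopsis thaliana, and are given with their assembly names because no chromosome position belongs to them. B. juncea carries the genomes of both its parental species, and reads of near-identical copies can be shared between transcripts, so that the split between isoforms or copies is uncertain. Sequencing depth cannot be read from FPKM, and so no counting interval is given.

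After 6 h the larger group was that of transcripts that rose. Of the 13342 transcripts tested, 1556 (11.7%) were called higher and 1048 (7.85%) were called lower at a Benjamini-Hochberg adjusted p under 0.05 in limma, with the stage as a block, on log2(FPKM + 1). These came from 1093 and 826 unigenes, and 3 unigenes had transcripts called in both directions. The difference had the same sign at all 6 stages for 1431 of the transcripts called higher (10.7% of all tested) and 914 of those called lower (6.85%). The falls were smaller than the rises on this scale: the median log2 change was -0.94 for transcripts called lower and 1.26 for those called higher. The extremes were -3.36 and 5.04, and 42 transcripts fell but 302 rose by at least 2 on the log2 scale. A fall in log2(FPKM + 1) is limited by the control level, while a rise is not. The median control level was 4.34 FPKM for transcripts called lower, and the part of this limit was not tested.

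Counts without a test gave the same order. The sign was the same at all 6 stages for many transcripts: 1749 transcripts (13.1%) were higher and 1306 (9.79%) lower at all 6 stages. At least 2-fold differences at every one of the 6 stages were seen for 429 transcripts upward (3.22% of all) and 45 downward (0.337%), with the same limit on falls. The 6 chilled libraries lay wholly above the 6 controls for 812 transcripts (6.09%) and wholly below for 213 (1.6%). The count of transcripts called lower depended on single stages: it was 589 without 10 DAP and 655 without 15 DAP, and 351 when the stage was left out of the model, where 972 were called higher. The median over all 13342 transcripts was -0.002, and by stage it ran from -0.075 to 0.057. The TMM scaling centres the libraries on each other, so a general shift could not be seen in these values.

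Transcripts of other tissues were checked by summed FPKM. Seed storage proteins and oleosins (36 transcripts) ran from 6.54 FPKM in the control at 15 DAP to 1484.5 FPKM in that at 30 DAP, and had medians of 21.2 FPKM in control and 21.4 FPKM in chilled libraries. Photosystem and light-harvesting transcripts of green tissue (11) summed to 85.3 to 166 FPKM in control and 71.1 to 132 FPKM in chilled libraries. Seed coat genes (7 transcripts, medians 117 and 83.8 FPKM), embryo regulators (11, medians 75.7 and 51.0 FPKM), pollen and anther genes (24, medians 87.3 and 94.9 FPKM) and endosperm genes (4, medians 1.39 and 2.22 FPKM, at 0 in the control at 30 DAP) also had overlapping ranges. Within stage pairs the chilled sum was the lower for photosystem transcripts at 5 of 6 stages, for example 99.9 against 162 FPKM at 20 DAP. It was the lower for seed storage transcripts at 4 of 6 (909 against 1484.5 FPKM at 30 DAP) and for embryo regulators at 3 of 6 (3.62 against 10.3 FPKM at 5 DAP and 3.75 against 9.15 FPKM at 10 DAP). Seed coat, endosperm and pollen and anther sums were each the lower at 4 of 6. The part of tissue make-up in the results below was not tested. Clock genes listed by name, in contrast, moved as a block: all 31 transcripts, from 7 unigenes, were called higher, with a median log2 change of 2.81. The part of the hour of harvest in the results was not tested.

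Pectin-modifying and wall-loosening transcripts were called lower more often than higher. Among 59 transcripts of pectin methylesterases and their inhibitors, 13 (22.0%) were called lower and 5 (8.47%) higher, and among 66 polygalacturonase and pectate lyase transcripts 13 (19.7%) were called lower and 7 (10.6%) higher. The directions divided by the kind of protein, in sub-lists drawn by name after the values had been seen. Of 34 transcripts named as pectinesterases, which strip methyl groups from pectin, 9 fell and 1 rose, the falls from -2.05 to -0.59. Of 31 pectate lyases and pectin lyase-like proteins, which belong to the family that cuts pectin chains, 13 fell and none rose, between -1.92 and -0.67. Of 10 transcripts named as polygalacturonase inhibitors, 7 transcripts of 2 unigenes rose by 0.99 to 2.46 and none fell. The name does not tell whether the polygalacturonases they inhibit are those of the plant or of other organisms. None of the 23 transcripts with polygalacturonase as the best hit was called, while by enzyme number, given below, 3 of 22 were. The counts of falls depended on which stage was left out. Without 5, 10, 25 or 30 DAP 8 of the methylesterase and inhibitor list were called lower, and without 5, 10, 25 or 30 DAP 3, 3, 4 and 7 of the polygalacturonase and pectate lyase list, against 11 and 13 without 15 and 20 DAP. With the stage out of the model the lists had 2 and 1 called lower.

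Pectinesterase 35 (c72365_g2_i4) showed the steepest fall of the named pectin enzymes. Its level ran from 2.91 FPKM through a median of 16.9 to 67.8 FPKM in the controls, and from 0.16 through 2.75 to 10.3 FPKM after the cold. The groups overlapped because the control level climbed with age, but the chilled library was the lower of its pair at all 6 stages. The paired log2 change was -2.05 ± 0.24 (SE, 6 stages), a 4.13-fold fall with a limma adjusted p of 0.000945. A transcript of the pectin lyase-like family (c66673_g1_i3) went from a control median of 23.0 FPKM to 10.3 FPKM, a log2 change of -1.29 ± 0.20 at an adjusted p of 0.0037, and was lower at every stage, least at 20 DAP (-0.35).

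Transcripts named as invertase or pectin methylesterase inhibitors, a name that does not tell the kinds apart, moved both ways. They are counted in the list of pectin methylesterases and their inhibitors above. Of 20 transcripts so named, 4 rose, by 0.98 to 3.08, and 4 fell, by -1.53 to -0.49. An inhibitor family transcript (c72634_g1_i1) lay between 35.7 and 107 FPKM, median 67.2, in the controls and between 326 and 952 FPKM, median 548, in the chilled siliques. Every chilled library was above every control, and the log2 change of 3.08 ± 0.19 was an 8.49-fold rise at a limma adjusted p of 4.88e-05. Another (c24669_g1_i1) rose 7.63-fold, from a median of 15.9 to 118 FPKM, while c62020_g1_i3 fell from a median of 4.58 to 1.2 FPKM at an adjusted p of 0.00128. Polygalacturonase inhibitor protein 9 (c68159_g1_i1) went from 21.5 to 59.8 FPKM in the controls, median 42.3, to 151 to 302 FPKM, median 236, with no overlap, and its log2 change was 2.46 ± 0.25.

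Expansins, which loosen the wall without cutting it, fell where they were called: 4 of 20 transcripts, from 2 unigenes, were called lower and none higher, the list median was -0.28, 1 or 2 of them were called lower when 5, 10, 15, 20 or 25 DAP was left out, and none was without the stage in the model. Alpha-expansin 8 (c63886_g1_i1) had a control range of 3.86 to 35.7 FPKM with a median of 13.8, and a chilled range of 1.32 to 12.3 FPKM with a median of 6.06. The ranges overlapped, and the control was the higher of the pair at 6 of 6 stages, by a log2 difference of 0.63 at 20 DAP to 2.06 at 15 DAP. Its mean change of -1.31 ± 0.23 had a limma adjusted p of 0.00594. Expansin-A11 (c66478_g1_i3) changed by -1.16 ± 0.27 at an adjusted p of 0.0219, which became 0.0569, 0.0716 and 0.0531 without 5, 10 and 25 DAP.

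**Figure D1:**
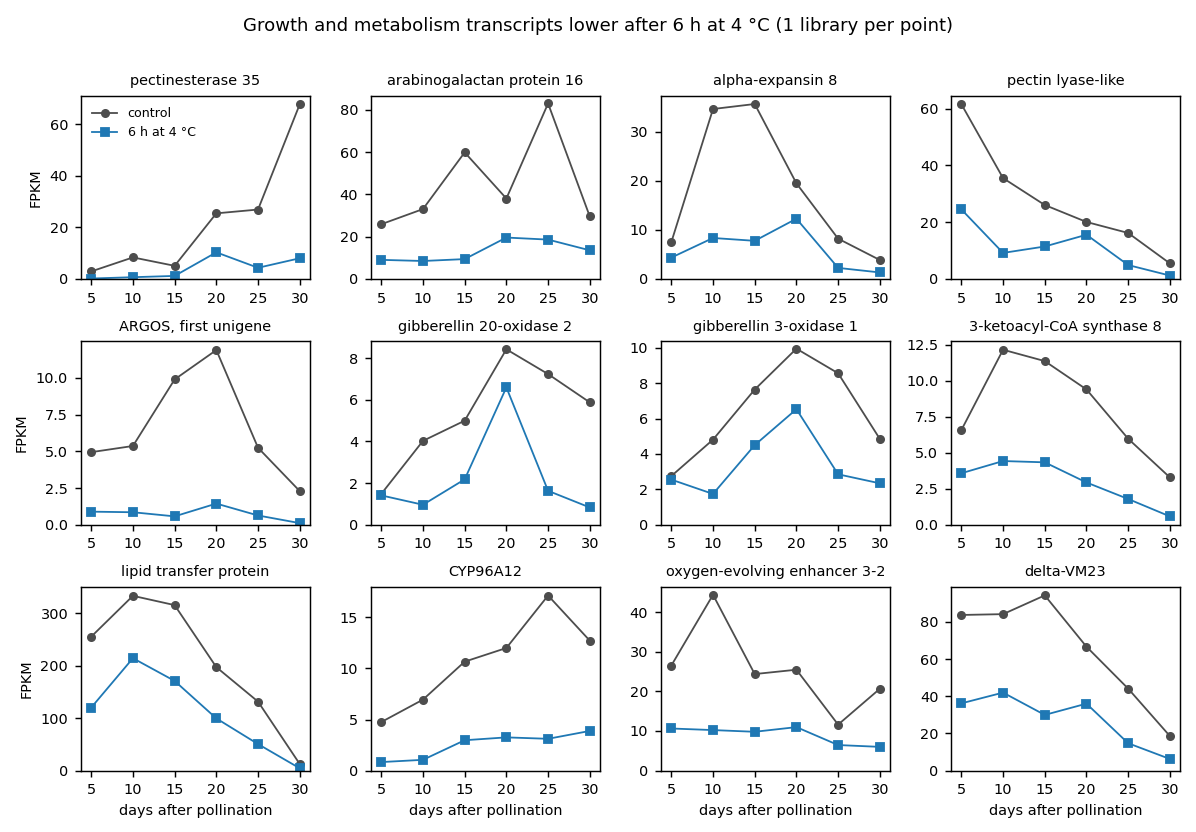
Level in FPKM (y axis, linear from 0, own scale per panel) against days after pollination (x axis) for 12 growth and metabolism transcripts that were lower after 6 h at 4 °C; grey circles are controls, blue squares the chilled siliques, 1 library per point with no error bar. The chilled library is the lower of its pair at all 6 stages in each panel, as the rule that named these transcripts required. The difference is as little as 0.04 on the log2 scale for gibberellin 20-oxidase 2 at 5 DAP.

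Arabinogalactan protein 16 (c57710_g1_i1), one of the small glycoproteins of the cell surface, belongs to a list of which 2 of 42 transcripts were called lower and none higher. Its controls held 25.9 to 83.1 FPKM, median 35.6, and the chilled siliques 8.49 to 19.6 FPKM, median 11.5. No chilled library reached the lowest control, and the log2 change was -1.65 ± 0.23 with a limma adjusted p of 0.00215.

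Wall synthesis genes changed in both directions. Among 25 cellulose and callose synthase transcripts 5 rose (20.0%) and 1 fell, although the median of the list was -0.61 and 17 of its transcripts had a change below 0. Cellulose synthase A 5 (c68481_g2_i6), one of the catalytic subunits that spin cellulose in growing walls, went from 7.47 to 64.7 FPKM in the controls, median 11.9, to 16.8 to 99.3 FPKM, median 21.7. The groups overlapped across ages, but the rise of 0.61 to 1.07 at each of the 6 stages gave a log2 change of 0.85 ± 0.12 (limma adjusted p 0.00229; 0.596 without the stage in the model). Cellulose synthase 5.1 (c73000_g1_i2) rose by 0.69 ± 0.11. The xyloglucan endotransglucosylase/hydrolase XTH17 (c57850_g2_i1), whose family cuts and rejoins xyloglucan, rose from a median of 20.0 to 103 FPKM with no overlap, by 2.30 ± 0.32, within a list of 18 of which 1 was called higher and 2 lower.

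Wall terms of the GO annotation were counted as well. Of 80 transcripts under cell wall modification, 16 (20.0%, 12 unigenes) were called lower and 2 higher, and 16 were lower at all 6 stages; leaving out 1 stage gave 9 to 15, with 9 without 10 DAP, and none was called lower without the stage in the model. Under xylan biosynthetic process the share called lower, 18 of 222 or 8.11%, was near that of all transcripts and stood at 4, 11, 8 and 11 transcripts without 10, 15, 20 and 25 DAP, and 2 were called higher. Plant-type cell wall organization had shares near those of all transcripts both ways, 10 of 85 higher (11.8%) and 8 lower (9.41%), or 4 lower without 5 DAP, and so had cell wall biogenesis, with 11 of 97 higher (11.3%, 4 unigenes) and 8 lower (8.25%, 7 unigenes), or 5 lower without 5, 10, 15 or 25 DAP. By enzyme number, pectinesterase had 8 of 48 transcripts called lower (16.7%) and 1 higher, pectate lyase 4 of 11 lower, polygalacturonase 3 of 22 lower (13.6%) and none higher, and peroxidase 7 of 59 lower (11.9%) and 1 higher, where all 1053 transcripts with an enzyme number had 7.12% lower and 10.2% higher.

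Auxin genes gave different pictures by name and by GO term. Of 51 transcripts in the list drawn by name, 14 (27.5%, 11 unigenes) were called lower and 2 (1 unigene) higher, 40 had a change below 0, and the median was -0.36. Leaving out 5, 10, 15, 20 or 25 DAP gave 9, 7, 6, 9 and 9 called lower. The wider GO term response to auxin stimulus ran the other way, with 67 of 382 transcripts (17.5%, 33 unigenes) called higher and 23 (6.02%) lower, the latter 12, 11, 15 and 14 without 10, 15, 20 and 25 DAP. Auxin mediated signaling had 17 of 102 higher (16.7%) and 14 lower (13.7%), or 9 and 8 lower without 10 and 15 DAP. Within the list drawn by name, the Aux/IAA proteins, repressors whose genes auxin switches on, made up most of the falls: 9 of 18 transcripts from 6 unigenes fell, by -1.26 to -0.46, and none rose. GH3 enzymes, which tie auxin to amino acids, gave 2 falls among 11. One of them, the IAA-amido synthetase c70054_g1_i2, went from 2.65 to 42.7 FPKM in the controls, median 8.36, to 0.57 to 27.7 FPKM, median 1.74. Its groups overlapped, and the paired change was -1.24 ± 0.21 at a limma adjusted p of 0.00486.

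SAUR genes, small auxin-induced genes linked to cell expansion, gave 2 falls and 2 rises among 11 transcripts. SAUR-like c58005_g2_i1 dropped from a range of 1.12 to 5.20 FPKM to one of 0.05 to 0.56 FPKM, with no overlap (log2 change -1.22 ± 0.24, limma adjusted p 0.0091). SAUR-like c55738_g1_i1 rose from a median of 0.98 to 5.12 FPKM (1.53 ± 0.23), with the lowest control listed at 0 and overlapping groups.

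ARGOS, which in Arabidopsis enlarges organs by prolonging their growth, fell in 2 unigenes. For c71822_g1_i2 the controls held 2.29 to 11.9 FPKM, median 5.30, and the chilled siliques 0.11 to 1.44 FPKM, median 0.74. Chilled and control libraries did not overlap, and the log2 change of -2.02 ± 0.19 was repeated at each stage between -2.79 and -1.57 (limma adjusted p 0.00031). The other unigene, c47245_g1_i1, fell by -1.90 ± 0.35, from a median of 5.54 to 0.38 FPKM, with overlapping groups. They belong to a list of 18 organ size and growth regulators of which 4 transcripts (3 unigenes) fell and none rose, with 15 changes below 0.

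Over the 26 gibberellin transcripts listed 3 were called higher (11.5%), near the share of all transcripts, and 3 lower (11.5%), with none lower without 10 or 25 DAP, 1 without 15 or 30 DAP and 5 without 20 DAP. The 3 called higher were of 1 unigene of gibberellin 2-oxidase, and 2 of 8 transcripts of 3- and 20-oxidases were called lower. Gibberellin 20-oxidase 2 (c64912_g2_i1) and gibberellin 3-oxidase 1 (c66893_g1_i1), which carry out the last steps to the active hormone, had control medians of 5.44 and 6.24 FPKM and chilled medians of 1.52 and 2.7 FPKM. Groups overlapped for both, and at 5 DAP the differences were only -0.04 and -0.08 on the log2 scale. The changes were -1.03 ± 0.26 and -0.75 ± 0.18, with limma adjusted p of 0.0302 and 0.0212. Both calls depended on the stages: without 10, 15, 25 or 30 DAP the adjusted p was 0.0952, 0.0749, 0.0843 and 0.0818 for the 20-oxidase and 0.0736, 0.0572, 0.0543 and 0.0570 for the 3-oxidase. Gibberellin 2-oxidase 1 (c70061_g2_i7), which inactivates the hormone, held 0.03 to 0.59 FPKM in the controls and 2.07 to 6.38 FPKM after the cold, median 3.30. No chilled library overlapped the controls, and the log2 change was 1.90 ± 0.16 (adjusted p 0.000215).

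Cell division and the cytoskeleton were thinly represented. Of 6 cyclin, cyclin-dependent kinase and mitotic transcripts 2 were called lower, and of 7 tubulin and microtubule transcripts 2 were called lower, none higher in either. Cyclin p3;2 (c63595_g2_i1) went from a median of 3.72 to 0.44 FPKM with overlapping groups and a change of -1.57 ± 0.34 (limma adjusted p 0.015, and 0.0504 without 15 DAP). Beta-tubulin 8 (c55125_g1_i1), a building block of microtubules, had control levels of 9.50 to 88.4 FPKM and chilled levels of 3.82 to 38.9 FPKM. It was lower at each stage within a narrow band of -1.40 to -0.55 (mean -0.88 ± 0.15, adjusted p 0.00494, and 0.654 without the stage in the model).

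The GO terms on growth did not share a direction. Response to brassinosteroid stimulus had 23 of 116 transcripts (19.8%, 16 unigenes) lower and 9 higher, with 11 lower without 15 DAP, 12 without 10 DAP and 14 without 25 DAP. Unidimensional cell growth had 12 of 95 (12.6%) lower and 2 higher, with 6 lower without 10 or 15 DAP and 8 without 5, 20 or 25 DAP. Regulation of meristem growth had 14 of 175 (8.0%) lower, near the share of all transcripts, and 5 higher. Response to gibberellin stimulus had 45 of 148 higher (30.4%, 11 unigenes) and 9 lower, the latter 5, 3, 5, 5 and 4 without 5, 10, 15, 25 and 30 DAP. Cell proliferation had 5 of 61 higher and none lower, and of 7 transcripts named as brassinosteroid genes 2 rose and none fell, with a median of 1.05.

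Lipid and cuticle genes fell in small numbers. Lipid transfer proteins, which carry lipids toward the surface, had 7 of 27 transcripts (25.9%, 7 unigenes) lower and none higher, with 4 or 5 lower when any stage was left out. Fatty acid synthesis, elongation and desaturation had 5 of 35 lower (14.3%), or 3 without 10 or 15 DAP, and 1 higher. Wax biosynthetic process in GO had 8 of 47 lower (17.0%) and 4 higher, with 5 lower without 5, 10 or 15 DAP and 12 without 30 DAP. The most abundant of the falling members named here was the lipid transfer protein c60014_g1_i2, whose controls held 12.5 to 333 FPKM, median 226, and whose chilled siliques held 4.32 to 214 FPKM, median 110. Its level was lowest at 30 DAP in both groups, and the groups overlapped. Its paired change of -1.05 ± 0.14 spanned -1.36 to -0.63 over the stages (limma adjusted p 0.00165, and 0.854 without the stage in the model).

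3-ketoacyl-CoA synthase 8 (c68851_g2_i1), of the family that lengthens fatty acids for waxes and seed lipids, went from 3.29 to 12.2 FPKM, median 8.0, to 0.58 to 4.43 FPKM, median 3.26. The groups overlapped, and the change of -1.23 ± 0.13 (limma adjusted p 0.00064) was one of the steadiest of the falls, at -1.44 to -1.21 from 10 to 30 DAP and -0.73 at 5 DAP. Long-chain acyl-CoA synthetase 1 (c37032_g1_i1), which activates fatty acids for wax and cutin, changed by -0.89 ± 0.20, with an adjusted p of 0.0164 that became 0.0594 without 10 DAP and 0.0551 without 15 DAP. CYP96A12 (c59557_g2_i1), a cytochrome P450 of a family that includes a wax alkane hydroxylase in Arabidopsis, fell without overlap, from 4.75 to 17.2 FPKM down to 0.83 to 3.88 FPKM. Its change of -1.74 ± 0.13 ranged from -2.14 to -1.49 over the 6 stages (adjusted p 0.000135).

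Among the desaturases the direction depended on the enzyme. The putative lipid desaturase ADS3.2 (c34184_g1_i1) fell from a median of 3.80 to 0.32 FPKM (-1.46 ± 0.27) with overlapping groups. Delta8-sphingolipid desaturase (c67284_g1_i2), which acts on the long-chain bases of sphingolipids, rose from 1.88 to 5.14 FPKM in the controls to 10.2 to 16.8 FPKM, with no overlap (1.72 ± 0.18, limma adjusted p 0.000504).

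Plastid and water transport transcripts gave single falls rather than group falls. Oxygen-evolving enhancer protein 3-2 (c55298_g1_i1), a subunit of the water-splitting side of photosystem II, had control levels of 11.6 to 44.4 FPKM, median 24.9, and chilled levels of 5.98 to 10.97 FPKM, median 10.0. The groups did not overlap, with a change of -1.34 ± 0.18 (limma adjusted p 0.00164). Lhcb2 (c46154_g1_i1), an antenna protein of the same photosystem, rose from a median of 2.96 to 18.2 FPKM with no overlap (2.33 ± 0.25). The list they belong to had 3 of 11 transcripts lower and 2 higher, or 1 of each without 5 DAP. Carbonic anhydrase 2 (c60184_g2_i1), which interconverts carbon dioxide and bicarbonate, had the highest levels of the falling plastid transcripts described, 121 to 310 FPKM in the controls, median 158, and 40.4 to 115 FPKM in the chilled siliques, median 81.4. Its groups did not overlap, but the stages were uneven, from -2.38 at 30 DAP to -0.11 at 25 DAP, and the adjusted p of 0.0459 became 0.0845, 0.131, 0.0727, 0.0986 and 0.113 without 5, 10, 15, 20 and 30 DAP. It was the only call, downward, among 14 Calvin cycle and photorespiration transcripts.

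A pair of water channels fell. Delta-VM23 (c65575_g2_i3), named for a tonoplast aquaporin of radish, went from 18.6 to 94.3 FPKM, median 75.2, to 6.23 to 42.0 FPKM, median 33.0. The groups overlapped with age, and the change was -1.27 ± 0.14 (limma adjusted p 0.000762, and 0.164 without the stage in the model). The plasma membrane aquaporin PAQ1 (c48278_g1_i1) went from 24.7 to 63.1 FPKM down to 5.86 to 22.7 FPKM without overlap (-1.37 ± 0.20). The list of 23 aquaporins, which does not match delta-VM23 by name, had this 1 call lower, none higher, and a median of 0.17. Atypical thioredoxin 5 (c59946_g1_i1), of a family of redox proteins of the plastid, fell by -1.51 ± 0.24, least at 20 DAP (-0.39).

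Calcium signalling divided by protein family, again in sub-lists drawn after the values were seen. Of 67 transcripts 16 (23.9%) rose and 11 (16.4%) fell. EF-hand proteins, which bind calcium, fell in 9 of 11 transcripts (6 unigenes), by -2.45 to -0.68, and none rose. CBL-interacting kinases, which act below calcium sensors of the CBL family, rose in 11 of 16 transcripts (6 unigenes), by 0.66 to 2.28, and none fell. The fallen count of the whole list was 7, 5 and 6 without 5, 15 and 30 DAP.

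The EF-hand transcript c60317_g1_i1 held 25.6 to 83.0 FPKM in the controls, median 52.8, and 6.54 to 23.6 FPKM after the cold, median 18.2. No chilled library reached a control, and the change of -1.75 ± 0.17 was a 3.37-fold fall (limma adjusted p 0.000347). c67491_g3_i1 fell by -1.98 ± 0.19 and c88409_g1_i1 by -2.45 ± 0.44, the second from a median of 7.82 to 0.72 FPKM. In c88409_g1_i1 the difference was small at 5 DAP (-0.79) and deep at 25 DAP (-4.36), as it was in c63922_g1_i5, which is named only as metal ion binding (-0.75 and -4.42, mean -2.42 ± 0.43). CBL-interacting kinase 21 (c70927_g2_i1) rose from 3.60 to 7.91 FPKM to 17.5 to 31.6 FPKM, with no overlap (2.07 ± 0.19, adjusted p 0.000295).

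Single regulators fell within lists that had more transcripts called higher than lower, as all transcripts together had (11.7% and 7.85%). Ubiquitin ligases and F-box proteins had 22 of 121 transcripts higher (18.2%) and 11 lower (9.09%), MYB factors 13 of 100 higher (5 unigenes) and 9 lower (8 unigenes), and WRKY factors 7 of 53 higher and 3 lower. The MYB falls were 4 or 5 with any stage left out, and the WRKY rises 3, 3, 3 and 4 without 5, 10, 15 and 30 DAP. A RING/U-box protein (c65056_g1_i6), of a family that includes ubiquitin ligases, held 13.6 to 31.8 FPKM in the controls, median 20.8, and 1.19 to 6.22 FPKM in the chilled siliques, median 1.98. The groups did not overlap, and the 6.11-fold fall (-2.61 ± 0.28, limma adjusted p 0.000639) ranged from -3.71 at 10 DAP to -1.74 at 20 DAP. CAPRICE-like MYB3 (c55582_g1_i1), named for a small MYB protein that patterns epidermal cells in Arabidopsis, fell from a median of 12.9 to 2.48 FPKM with no overlap (-2.11 ± 0.26). MYB28-3 (c52064_g1_i2), whose Arabidopsis namesake switches on aliphatic glucosinolate synthesis, fell from a median of 15.3 to 6.04 FPKM with no overlap (-1.43 ± 0.17). Of the 35 listed transcripts of glucosinolate synthesis and breakdown, 5 were called higher (14.3%, near the 11.7% of all transcripts) and none lower, with a median of -0.08. Glucosinolate biosynthetic process in GO had 13 of 189 transcripts higher (6.88%) and 14 lower (7.41%).

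Multiprotein-bridging factor 1c (c101017_g1_i1), a coactivator known from heat responses, had the deepest mean fall described here and one of the least even. Its controls held 3.45 to 50.5 FPKM and its chilled libraries 0.09 to 3.38 FPKM, without overlap. The change was -4.84 at 20 DAP and -4.45 at 15 DAP but -0.03 at 30 DAP, for a mean of -2.68 ± 0.59 (limma adjusted p 0.0164, and 0.0618 without 5 DAP). Heat shock factors and chaperones as a list gave 7 higher and 4 lower of 70, with a median of -0.26 and medians by stage of -0.66 at 15 DAP and 0.41 at 30 DAP. Without 30 DAP 15 of them were called lower, and without any other stage 1 to 3 were.

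Dicarboxylate carrier 2 (c55724_g1_i1), of a family of mitochondrial carriers for malate and related acids, fell without overlap from 3.69 to 63.0 FPKM down to 0.90 to 3.64 FPKM (-2.55 ± 0.46, limma adjusted p 0.00655). The 3'(2'),5'-bisphosphate nucleotidase c66326_g3_i3 belongs to enzymes that remove the stress signal PAP in Arabidopsis. It held 3.19 to 6.20 FPKM in the controls and 0.64 to 2.15 FPKM after the cold, and fell at each stage by between -1.61 and -0.79 (mean -1.18 ± 0.13, adjusted p 0.00083). WRKY1 (c33538_g1_i1), a transcription factor of the WRKY family, fell from a median of 12.7 to 4.06 FPKM (-1.27 ± 0.16) with overlapping groups.

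**Figure D2:**
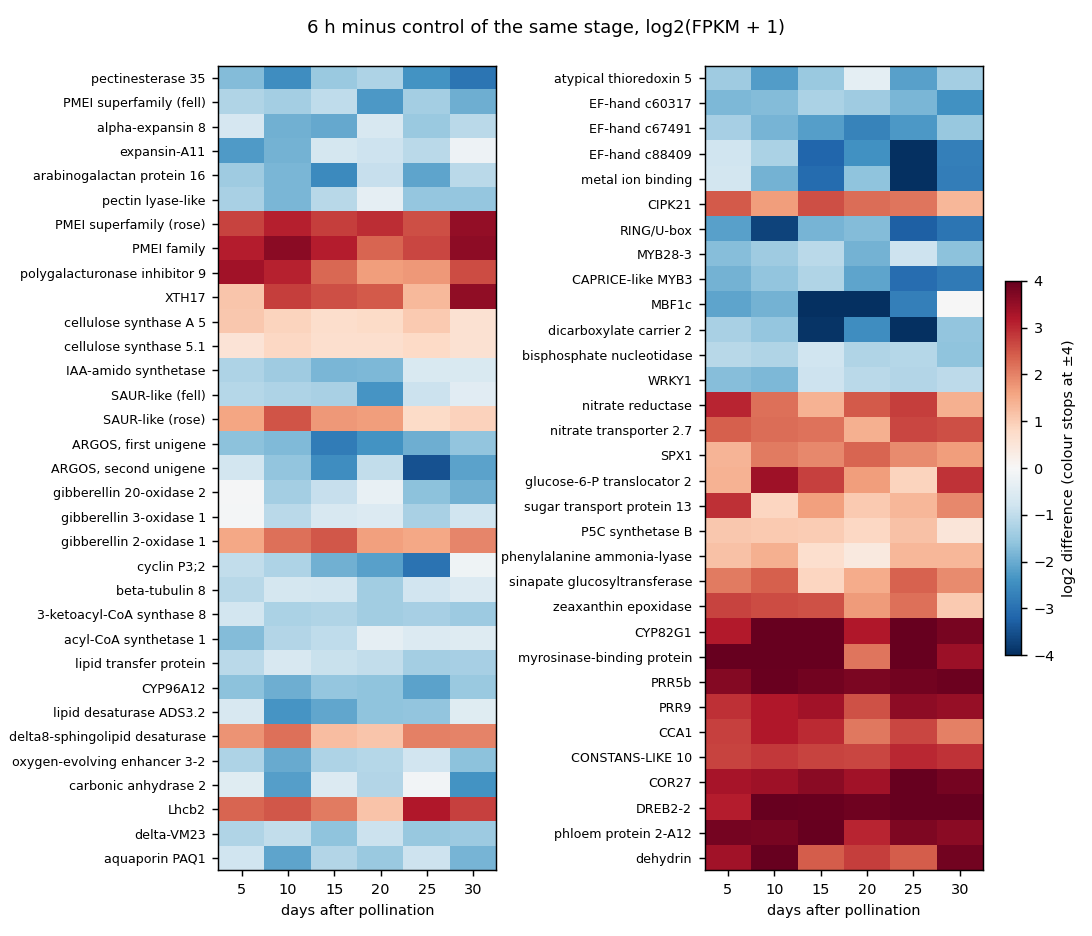
Log2 difference between the chilled and the control library of the same stage (colour, blue lower and red higher, stopped at 4 either way) for transcripts described in the text, other than those given for late against early stages (rows) at 5 to 30 days after pollination (columns); each cell is 1 pair of libraries. Rows keep 1 colour across the 6 stages because the rule that named these transcripts required 1 sign at all of them. The palest cells are in gibberellin 20-oxidase 2 at 5 DAP (-0.04) and multiprotein-bridging factor 1c at 30 DAP (-0.03).

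Metabolic genes were not all falling. Nitrate and ammonium uptake and assimilation had 5 of 19 transcripts higher (26.3%) and 2 lower. Nitrate reductase (c72628_g1_i2), the first enzyme of nitrate assimilation, went from 3.42 to 7.24 FPKM, median 4.86, to 14.5 to 41.7 FPKM, median 36.1. Chilled and control libraries were fully apart, and the change was 2.21 ± 0.25 (limma adjusted p 0.000762). The high affinity nitrate transporter 2.7 (c47523_g1_i1) rose from a median of 2.46 to 13.01 FPKM (2.24 ± 0.18). SPX domain protein 1 (c62126_g1_i2), part of phosphate sensing, rose from 10.3 to 21.3 FPKM to 41.4 to 111 FPKM with no overlap (1.87 ± 0.15), in a list of 16 phosphate starvation genes with 3 higher and none lower.

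Sugar transport had 9 of 37 transcripts higher (24.3%, 5 unigenes), or 6 without 15 or 30 DAP, and 2 lower. The glucose-6-phosphate/phosphate translocator 2 (c71052_g1_i5), which moves hexose phosphate across the plastid envelope, rose from a median of 3.78 to 26.6 FPKM (2.16 ± 0.34, limma adjusted p 0.0037), with overlapping groups and stage differences of 0.90 to 3.38. Sugar transport protein 13 (c70457_g3_i1), a hexose importer of the plasma membrane in Arabidopsis, rose by 1.62 ± 0.27, most at 5 DAP (2.92). P5C synthetase B (c26963_g1_i1), which opens the path to proline, rose by a little under 1 on the log2 scale, 0.94 ± 0.13, between 0.48 at 30 DAP and 1.16 at 25 DAP (adjusted p 0.00219, and 0.0654 without the stage in the model).

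Phenylpropanoid and lignin synthesis had 12 of 50 transcripts higher (24.0%, 8 unigenes) and none lower, while 32 had a change below 0 and the median was -0.08; without 5, 10, 25 or 30 DAP 6, 6, 7 and 8 were called higher. Phenylalanine ammonia-lyase (c62373_g1_i2), its entry enzyme, rose from a median of 15.5 to 29.0 FPKM (1.05 ± 0.17, limma adjusted p 0.0046). Sinapate 1-glucosyltransferase (c70535_g1_i3), which makes the sinapoyl glucose typical of Brassica seeds, rose from a median of 5.68 to 26.4 FPKM (1.84 ± 0.22). It also belongs to the UDP glycosyltransferases, of which 14 of 74 were called higher, or 9 without 10 DAP, and 1 lower. Zeaxanthin epoxidase (c70627_g1_i3), of the xanthophyll cycle and the path to abscisic acid, went from 15.5 to 41.0 FPKM to 60.6 to 123.3 FPKM with no overlap (2.13 ± 0.24).

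Some rises began from controls below 1 FPKM. CYP82G1 (c25355_g1_i2), which in Arabidopsis makes volatile homoterpenes, held 0.04 to 0.96 FPKM in the controls and 8.33 to 43.4 FPKM, median 28.2, in the chilled siliques. All 6 differences exceeded 3 on the log2 scale, with a mean of 3.94 ± 0.26 (limma adjusted p 6.73e-05). A myrosinase-binding protein (c62169_g2_i2), of the glucosinolate breakdown system, rose from 0.23 to 0.94 FPKM to 5.80 to 34.4 FPKM, again with no overlap (3.74 ± 0.30).

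**Figure D3:**
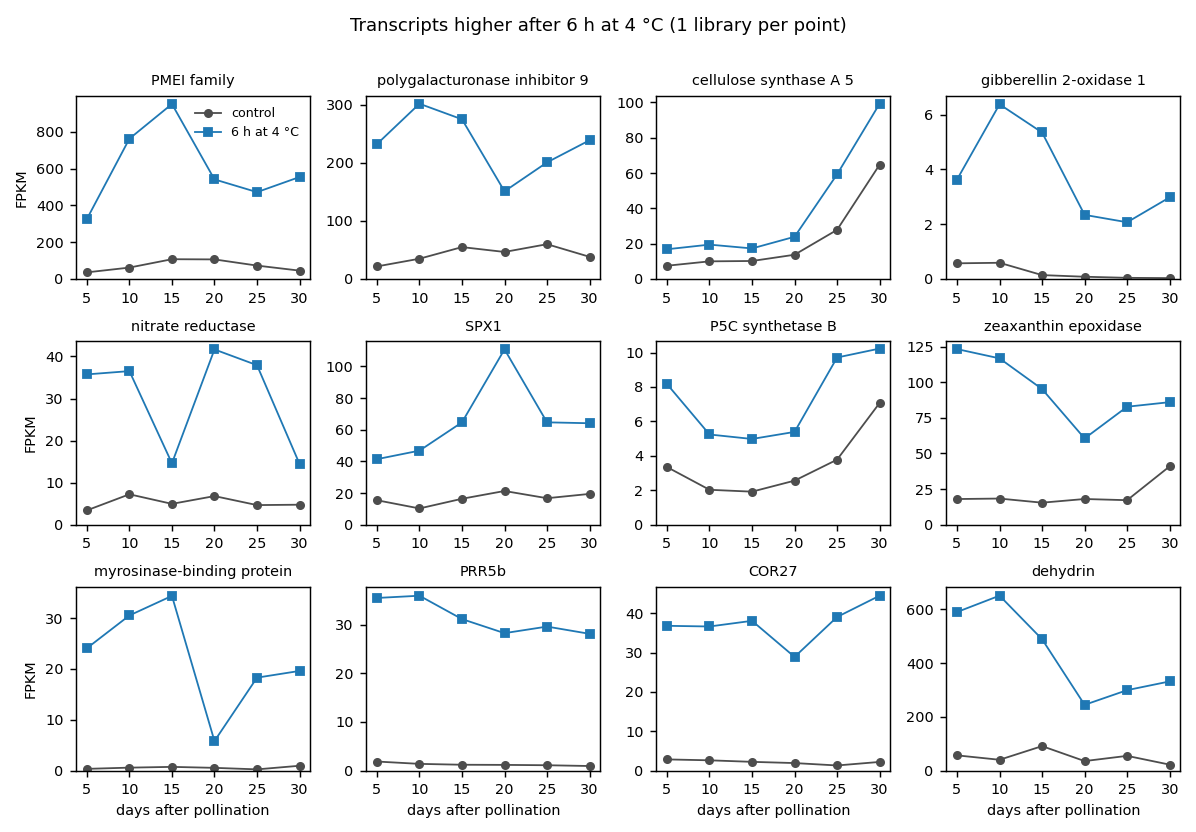
Level in FPKM (y axis, linear from 0, own scale per panel) against days after pollination (x axis) for 12 transcripts higher after 6 h at 4 °C; grey circles are controls and blue squares chilled siliques, 1 library per point with no error bar. The chilled library is the higher of its pair at every stage, as the rule that named these transcripts required. Pseudo-response regulator 5b stays between 28.1 and 35.9 FPKM in all 6 chilled libraries and between 0.93 and 1.85 FPKM in the controls.

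The clock and cold transcripts described here rose at all 6 stages, as the rule that named them required. Pseudo-response regulator 5b (c70128_g1_i5), an evening clock repressor, had the smallest adjusted p of the transcripts described, 2.49e-06 in limma. Controls lay at 0.93 to 1.85 FPKM and chilled siliques at 28.1 to 35.9 FPKM, and the log2 change stayed within 3.68 to 3.96 at the 6 stages. Pseudo-response regulator 9 (c64438_g1_i3) and CCA1 (c66891_g2_i1), which are expressed toward the morning in Arabidopsis, rose by 3.18 ± 0.16 and 2.62 ± 0.19. CONSTANS-LIKE 10 (c62344_g2_i1) rose by 2.80 ± 0.11, within a list of 37 B-box and CONSTANS-like transcripts of which 27 (73.0%) rose and 6 (16.2%) fell.

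Of 42 cold-regulated, dehydrin and LEA transcripts 20 (47.6%, 10 unigenes) rose, each at all 6 stages, and none fell; of 21 CBF and DREB transcripts 6 (28.6%, 6 unigenes) rose and none fell, while the median of that list was -0.09. Cold regulated protein 27 (c64594_g1_i2), which answers to both cold and the clock in Arabidopsis, went from 1.29 to 2.83 FPKM to 28.9 to 44.5 FPKM (3.60 ± 0.15, limma adjusted p 7.06e-06). DREB2-2 (c71883_g1_i1) went from a median of 1.06 to 27.4 FPKM (3.89 ± 0.17), and phloem protein 2-A12 (c64135_g1_i3), a lectin of a family found in the phloem, from 1.20 to 27.3 FPKM (3.70 ± 0.16). The dehydrin c38136_g1_i1 was at 22.0 to 90.9 FPKM in the controls, median 47.4, and 245 to 651 FPKM after the cold, median 410 (3.14 ± 0.25, adjusted p 0.000172). None of these transcripts had overlapping groups.

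**Figure D4:**
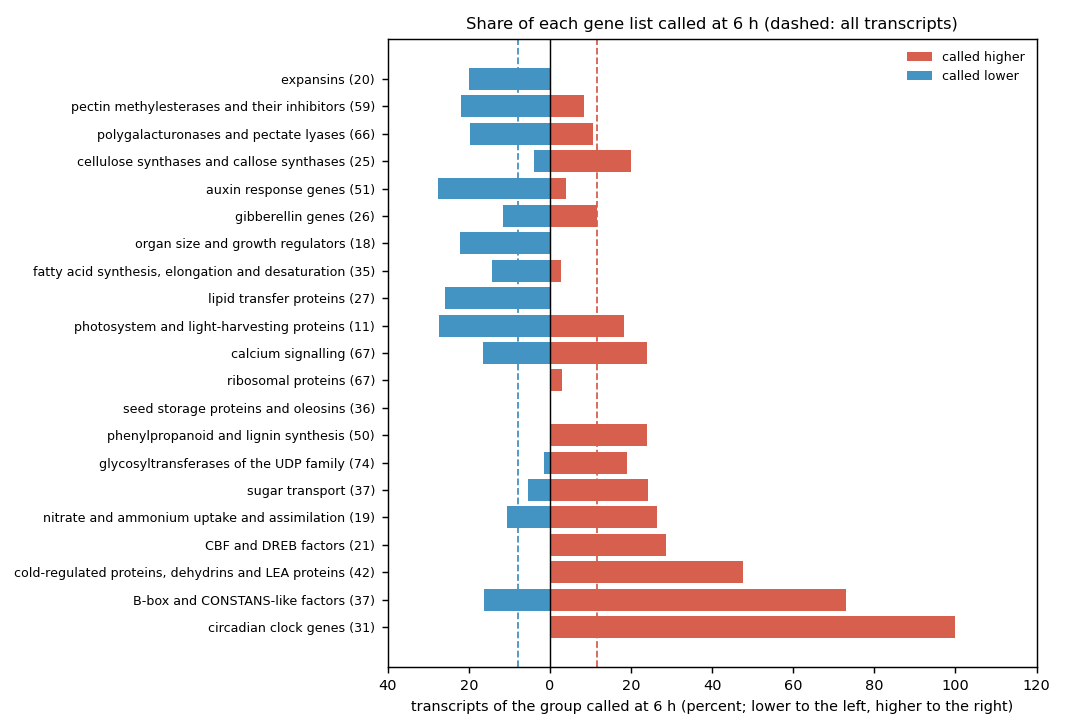
Share of each gene list called lower (blue, to the left) or higher (red, to the right) after 6 h, in percent of its transcripts, whose number is in brackets; dashed lines mark the shares over all transcripts, 7.85% lower and 11.7% higher. Auxin response genes (27.5%) and lipid transfer proteins (25.9%) extend to the left, circadian clock genes (100%) and B-box factors (73.0%) to the right, and seed storage proteins have no bar.

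By GO biological process, 388 of 2003 terms had at least 30 transcripts from at least 15 unigenes, and the 10 with the largest share called in each direction were taken. On the falling side detection of external stimulus led with 14 of 45 transcripts (31.1%, 8 unigenes), among them the metal ion binding unigene c63922_g1 and a calmodulin-binding protein (c70818_g1, -1.24 and -1.19). Response to mechanical stimulus had 29 of 118 lower (24.6%, 22 unigenes) and also 18 higher (15.3%), and held an EF-hand unigene (c46083_g2, -1.46 and -1.34) and arabinogalactan protein 16. Brassinosteroid mediated signaling had 8 of 32 lower (25.0%), ARGOS c71822_g1 among them. Response to molecule of bacterial origin had 22 of 100 lower (22.0%) and 1 higher. The members did not always do what the term says: in mRNA modification, with 16 of 54 lower (29.6%), 4 transcripts were of the pectin lyase-like unigene c66673_g1. Of the other terms, some held rises too. Metal ion transport had 10 of 41 lower (24.4%) and 7 higher (17.1%), and response to absence of light 12 of 57 lower (21.1%) and 9 higher (15.8%). Defense response to insect had 14 of 68 lower (20.6%) and 8 higher (11.8%). Xylem and phloem pattern formation (7 of 33 lower) and virus induced gene silencing (7 of 34 lower) had none higher.

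On the rising side several leading terms held many transcripts of the same unigene. Myo-inositol hexakisphosphate biosynthetic process had 45 of 73 transcripts higher (61.6%, 20 unigenes), of which 12 were of 1 unigene without a protein name (c70046_g1) and 7 of CCA1. Phosphatidylinositol biosynthetic process had 23 of 42 higher (54.8%) from only 5 unigenes, 13 of them of the unigene c70857_g1. That unigene also gave 13 of the 23 called higher among 64 in chlorophyll catabolic process (35.9%). In regulation of circadian rhythm 14 of the 20 called higher (of 40) were of the unigene of pseudo-response regulator 5, c70128_g1. The 20 came from 5 unigenes, and 5 transcripts (12.5%), also of 5 unigenes, were called lower.

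Circadian rhythm had the most unigenes called higher of the 10 terms, 40, with 66 of 150 transcripts (44.0%), while 10 (6.67%, 9 unigenes) were called lower. Response to desiccation had 22 of 60 higher (36.7%) from 20 unigenes, including a dehydrin unigene (c56112_g1, 2.99 and 3.12). Chloroplast organization had 34 of 75 higher (45.3%, 17 unigenes) and none lower, and regulation of the timing of the vegetative to reproductive transition had 22 of 45 higher (48.9%), both with Dof zinc finger transcripts of c67753_g1, which rose by up to 3.49. Negative regulation of transcription (74 of 195 higher, 26 unigenes) and the phosphorelay (25 of 68 higher) again held the pseudo-response regulators.

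**Figure D5:**
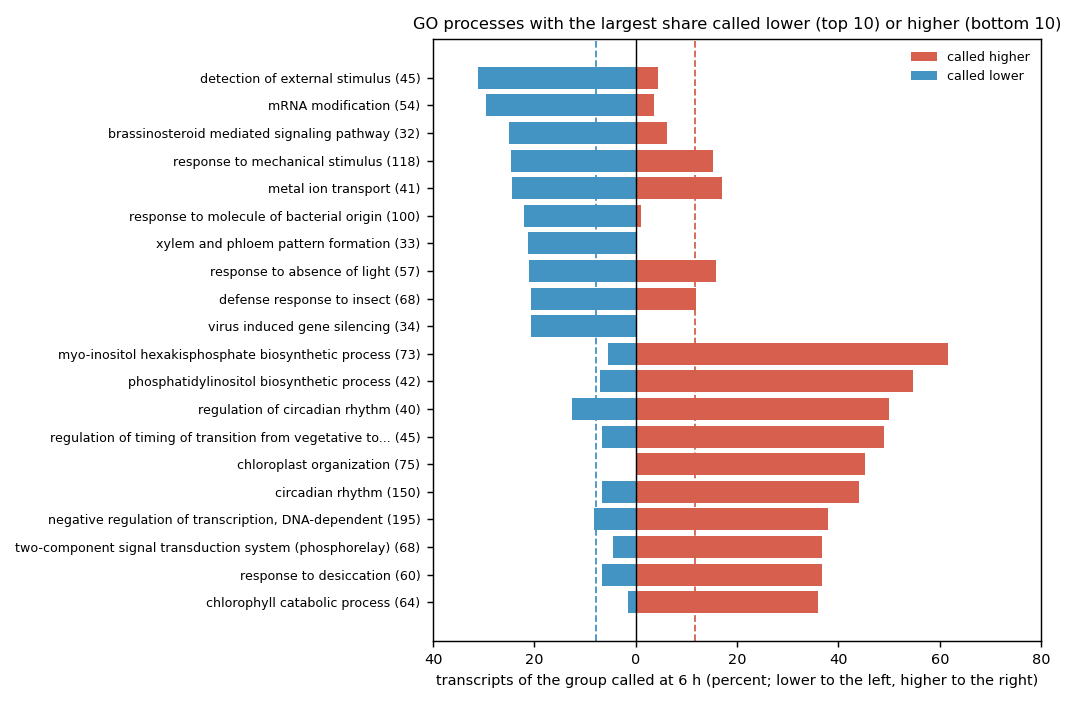
Share of the transcripts of a GO biological process called lower (blue, left) or higher (red, right) after 6 h, in percent, for the 10 terms with the largest share lower (top) and the 10 with the largest share higher (bottom); the number of transcripts is in brackets and dashed lines give the shares over all transcripts. The largest share lower was 31.1% (detection of external stimulus) and the largest higher 61.6% (myo-inositol hexakisphosphate biosynthetic process).

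Several groups gave few or no calls. Ribosomal proteins, the building blocks of the ribosome, had 2 of 67 transcripts higher and none lower, although 64 had a change above 0 and the median was 0.22. At 5 DAP the median was 1.79, and at the other stages it lay between -0.28 and 0.08. None of the 36 seed storage and oleosin, 11 embryo regulator, 7 seed coat, 4 endosperm, 24 pollen and anther or 22 cytokinin transcripts was called by limma. A missing call in these lists does not show that the levels were equal.

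The 12 h libraries share the controls with the 6 h libraries, so their values are set beside the 6 h values without a test between them. By the study's read statistics, quality filtering kept a smaller share of reads at 12 h than in control and 6 h libraries at most stages. It did not do so at the oldest ones. The part of this difference between libraries in the 12 h values was not tested, so they are not read as a time course. At 12 h 1367 transcripts were called higher (10.2%) and 1489 lower (11.2%), in a limma fit on all 18 libraries. The same fit called 1684 higher and 1229 lower at 6 h, against 1556 and 1048 in the fit on 12 libraries. For falling wall and growth transcripts, the 12 h changes on the log2 scale were -1.39 for pectinesterase 35 (-2.05 at 6 h), -1.38 for arabinogalactan protein 16 (-1.65), -1.46 for alpha-expansin 8 (-1.31) and -1.70 for ARGOS c71822_g1_i2 (-2.02). Oxygen-evolving enhancer 3-2 had -1.93 (-1.34 at 6 h), delta-VM23 -1.77 (-1.27) and atypical thioredoxin 5 -2.20 (-1.51). Among the risers gibberellin 2-oxidase 1 had 0.34 (1.90 at 6 h), CBL-interacting kinase 21 0.34 (2.07), sugar transport protein 13 0.12 (1.62) and CONSTANS-LIKE 10 0.40 (2.80), with limma adjusted p at 12 h of 0.21, 0.28, 0.811 and 0.0508. CCA1 (3.54 against 2.62), P5C synthetase B (1.63 against 0.94) and the dehydrin (3.62 against 3.14) had the higher value at 12 h.

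Whether the 6 h response differed between early stages (5 to 15 DAP) and late stages (20 to 30 DAP) was tested on the 6 paired differences. No transcript was called by limma, 673 had an unadjusted p under 0.05, and the smallest adjusted p was 0.904. The calls at 6 h rest on the mean of these same differences, so a shared sign at single stages is largely built into them. The counts by stage therefore do not test early against late stages. Of the 1556 called higher, between 1515 (25 DAP) and 1554 (15 DAP) were above their control. Of the 1048 called lower, between 998 (30 DAP) and 1044 (10 DAP) were below. The median log2 change ran from 0.99 at 20 DAP to 1.52 at 10 DAP for transcripts called higher. For those called lower it ran from -0.78 at 5 DAP to -1.10 at 10 DAP. Over all transcripts, 5 DAP stood apart in the number at least 2-fold higher, 2943, against 1220 to 1582 at the other stages.

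Among the transcripts with the smallest unadjusted p for late minus early, nitrate transporter 1.3 (c71008_g1_i1) rose at all 6 stages (mean 1.40 ± 0.27, limma adjusted p 0.00923), by 1.77 to 2.37 at the early and by 0.46 to 0.96 at the late stages. The difference between late and early was -1.32 and was not called. Cellulose synthase like A11 (c67832_g1_i2) had changes of -1.64 to -1.15 at the early and -0.26 to -0.01 at the late stages, with a mean of -0.76 that was not called (adjusted p 0.0671) and a late minus early difference of 1.18.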

How the data were processed

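RNA was sequenced as paired reads from whole siliques. The authors filtered the reads, assembled them de novo with Trinity, mapped them back with Bowtie2 and estimated abundance with RSEM, and the deposited table gives FPKM after their TMM scaling, which edgeR provides, for transcripts they had called between libraries. The deposited annotation table supplied best hits, enzyme numbers, GO terms and transcript length in bases. No genome build applies to the assembly. Per-library depth is not in these values.

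The deposited values were taken as log2(FPKM + 1). Duration was modelled with limma 3.58.1, under R 4.3.3, over the 12 control and 6 h libraries with stage as a block; the pairing comes from the stage in the labels. P-values were Benjamini-Hochberg adjusted over 13342 transcripts, without a filter on low values, and called below 0.05. A fold is on the log2(FPKM + 1) scale and understates low transcripts. Standard errors come from limma. Late minus early stages were tested on the 6 paired differences. Tables were made with Python 3.11.15 and pandas 2.3.3. The fit was tested on simulated data: of 100 transcripts changed 2-fold 36% were called, of 100 changed 4-fold 70%, with 1 false call. The simulation changed a far smaller part of the transcripts than the 19.5% called in the data. The changed ones had a mean of at least 1 FPKM, and falls were stopped at the floor. Its percentages are therefore not the sensitivity of the fit to the real data.

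Members and lists were chosen with earlier results of these data known. Lists were built from words in the best hit, domain or GO term and are described by counts and medians with no set test. Transcripts were named by a rule: up to 15 higher and 20 lower with the smallest p, up to 3 per list, up to 8 each way with the largest change at a mean of at least 5 FPKM, all with 1 sign at all 6 stages and 1 per unigene, and up to 5 each way for late minus early. The rule gave 171, and the 68 described were picked from these after their values were seen. GO terms of at least 30 transcripts and 15 unigenes were ranked by share called, passing over a term that shared over 60% with one already taken. Alternatives were a pseudocount of 0.1, a mean of at least 1 FPKM, median-ratio scaling, sums per unigene, all 18 libraries, no block, a trended prior and leaving out each stage. The columns of the other 6 libraries served only for the fit on all 18 libraries, which also gave the 12 h values. No transcript sequence was used here.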

Additional observations from a re-analysis of the deposited data

Results flagged for a closer look

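3-ketoacyl-CoA synthase 8 (c68851_g2_i1) fell less at 5 DAP than at the other stages: the log2 difference was -0.73 there and between -1.44 and -1.21 elsewhere, a gap of 0.681 of the whole range, past the 95% limit of Dixon's test for 6 values. It was the 1 of 68 transcripts tested in this way that passed that limit, and chance passes about 1 in 20.

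A hydrolase of the alpha/beta fold family (c65186_g1_i1) was higher than its control at the 3 early stages, by 0.10 to 1.12, and lower at the 3 late stages, by -1.78 to -0.72. The late minus early difference was -1.88 on the log2 scale and was not called (limma adjusted p 0.904), and the mean change over the 6 stages was not called either (adjusted p 0.555).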

How the results depend on the processing

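All 4 counts of called transcripts kept within 1.5 times of the values given above with a pseudocount of 0.1, a mean of at least 1 FPKM, median-ratio scaling, all 18 libraries and limma's trended prior. Summing isoforms gave 1022 unigenes called higher, 942 of them at all 6 stages. With no replicate block, so without the pairing by stage, 972 transcripts were called higher and 351 lower. Leaving out each stage in turn gave 1185 to 1452 called higher, 589 to 914 called lower, 1173 to 1420 higher at all stages and 577 to 901 lower at all stages, the lowest without 10 DAP; late minus early gave 0 calls throughout. The cause of these shifts was not tested. Lists also lost calls without the block: the calls lower went from 14 to 5 for auxin response genes by name, from 7 to 1 for lipid transfer proteins, from 12 to 1 for unidimensional cell growth and from 23 to 9 for response to brassinosteroid stimulus, and the calls higher from 12 to 1 for phenylpropanoid synthesis, from 14 to 3 for UDP glycosyltransferases and from 5 to 0 for cellulose and callose synthases.

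Of the 68 transcripts described, 66 were called. No direction turned under any alternative. The call was lost for 20 without the block, for 1 (carbonic anhydrase 2) with a pseudocount of 0.1 and for 7 without at least 1 stage, all named above, and cellulose synthase like A11 gained it in sums per unigene and in the fit of all 18 libraries. FPKM carry no depth, and the counting error of low levels was not computed.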
